A study of Homo sapiens with 24 samples.

Results

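Imprinted genes are expressed mainly from the copy inherited from 1 parent, the mother or the father, while the other copy is kept silent. The set described here held 43 genes known to be imprinted in human, chosen as the rows of the deposited count table whose gene identifiers map to a fixed list of symbols. All 43 were found among the 61551 genes used. By the parent whose copy is generally expressed, 23 were paternal and 20 maternal, and they lay in 19 chromosomal domains. For some of them, such as SGCE, GNAS and CASD1, this holds only in certain tissues or transcripts. The counts sum the reads of both copies, so a level could be measured here but not the copy that it came from.

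The study asked what HAR123, a conserved noncoding enhancer that changed rapidly on the human lineage, does in early neural development. RNA was sequenced from H9 cells, an established human embryonic stem cell (hESC) line, of 4 genotypes at 2 stages, with 3 libraries in each of the 8 groups. The hHAR123 cells were unedited and carried the human element, HAR123-KO cells had it deleted from both alleles by CRISPR editing, and in cHAR123 and mHAR123 cells it had been replaced by the chimpanzee or the mouse ortholog. ESC libraries came from undifferentiated hESCs. ECTO libraries came from neuroectoderm after 5 days of differentiation with 500 ng/ml Noggin, a BMP inhibitor, and 10 µM SB431542, an inhibitor of TGF-β and activin receptors. All groups therefore shared the H9 background, and hHAR123 was the common control. The libraries of each genotype came from 2 clones, so at least 2 of the 3 libraries of a group share a clone. Which libraries do is not given in the sources used here, n counts libraries and not clones, and p-values measure only the spread between these libraries. HAR123 is not a gene, and gene counts hold no direct readout of its deletion. In neuroectoderm, the gene table among the study's supplements pairs the names of the chimpanzee and mouse replacement lines with the data the other way round from the count table. Values here follow the count table, and cHAR123 ECTO and mHAR123 ECTO mean the libraries labelled so.

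At most imprinted domains, an imprinting control region carries DNA methylation on the copy from 1 parent only, set down in the germ line and kept through the erasure that follows fertilization. Neighbouring genes read this mark together, which is why imprinted genes lie in clusters where paternal and maternal genes alternate. Many of them act in fetal growth, the placenta and the brain. Cultured human pluripotent cells are known to gain or lose such marks at single domains.

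Library totals ran from 23334732 to 35198684 counts in ESC and from 21022748 to 25978892 in ECTO, and the 43 genes took 0.202% to 0.212% of the counts of an ESC library and 0.317% to 0.36% of an ECTO library. Pluripotency markers summed to 4.74e+03 to 5.11e+03 CPM (counts scaled to a library total of 1000000) in ESC and to 1.52e+03 to 1.76e+03 in ECTO. In ECTO, 6 neuroectoderm markers summed to 1.21e+03 to 1.22e+03 CPM in hHAR123, 1.26e+03 to 1.28e+03 in cHAR123 and 1.15e+03 to 1.16e+03 in mHAR123, but to 529 to 540 in HAR123-KO. Neural crest markers went the other way, with 109 to 116 CPM in hHAR123, 256 to 268 in cHAR123, 286 to 291 in mHAR123 and 1.47e+03 to 1.49e+03 in HAR123-KO. Mesenchyme markers summed to 130 to 133 CPM in hHAR123 and 623 to 652 in HAR123-KO, a rise carried by COL1A2, with LUM and DCN, which define that list, both under 1 CPM. Trophoblast and amnion markers summed to 5.55 to 5.99 and 89.6 to 92.3, of which TFAP2C made up means of 4.35 and 87.4, with CDX2 and CGA at 0 in HAR123-KO. Mesoderm markers summed to at most 3.77 CPM and endoderm markers to at most 0.413 in any ECTO library. The pluripotency sum in ECTO was mostly LIN28A, which fell little from ESC. In hHAR123, mean CPM went from 157 in ESC to 1.26 in ECTO for NANOG and from 378 to 0.769 for TDGF1. It went from 830 to 8.83 for L1TD1 and from 470 to 114 for DPPA4, and POU5F1 fell to 15.4. In bulk RNA, fewer cells of a type and less RNA per cell cannot be told apart, and the part of these markers in the differences of imprinted genes below was not tested.

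The imprinted genes ranged widely in level. Per kilobase of exon, which allows genes to be compared, PEG10, a paternal gene derived from a retrotransposon, and GNAS, which encodes the stimulatory G protein alpha subunit, had means over 12 ESC libraries of 26.3 and 25.3 CPM per kb. SNRPN, a splicing protein gene of the Prader-Willi region, had 20.6, and 36.8 per kb of the exon length that no other gene of its strand overlaps, so that its place among these genes depends on the length used. MEST, which encodes a hydrolase-fold protein, had 16.4. In neuroectoderm PEG10 stood at 79.9 and GNAS at 32.8 CPM per kb, followed by MEST at 25.7 and CDKN1C, the cyclin-dependent kinase inhibitor p57, at 23.3.

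At the low end, the 19q13.4 domain was silent, with PEG3, ZIM2 and USP29 at 0 counts in all 24 libraries. Counts of 0 allow up to 3 counts, which came to 0.0852 to 0.143 CPM depending on the library. For ZIM2 and PEG3, 41.2% and 12.9% of the exon length overlapped exons of another gene on the same strand, where the counting left reads out. NNAT, a proteolipid gene of the developing brain that sits inside BLCAP, reached at most 4 counts in hESCs and 1 in neuroectoderm, and KLF14, a single-exon transcription factor gene, at most 3 at either stage. H19, the maternal noncoding RNA next to IGF2, had 0 to 17 counts in hESCs and 0 to 2 in neuroectoderm. KCNK9, a potassium channel gene, had 5 to 24 and 0 to 13, and MKRN3, which encodes a ubiquitin ligase that acts as a brake on puberty, never passed 18. No library had over 20 counts for 7 of the 43 genes, so that a change in these could be seen only if it was large.

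**Figure D1:**
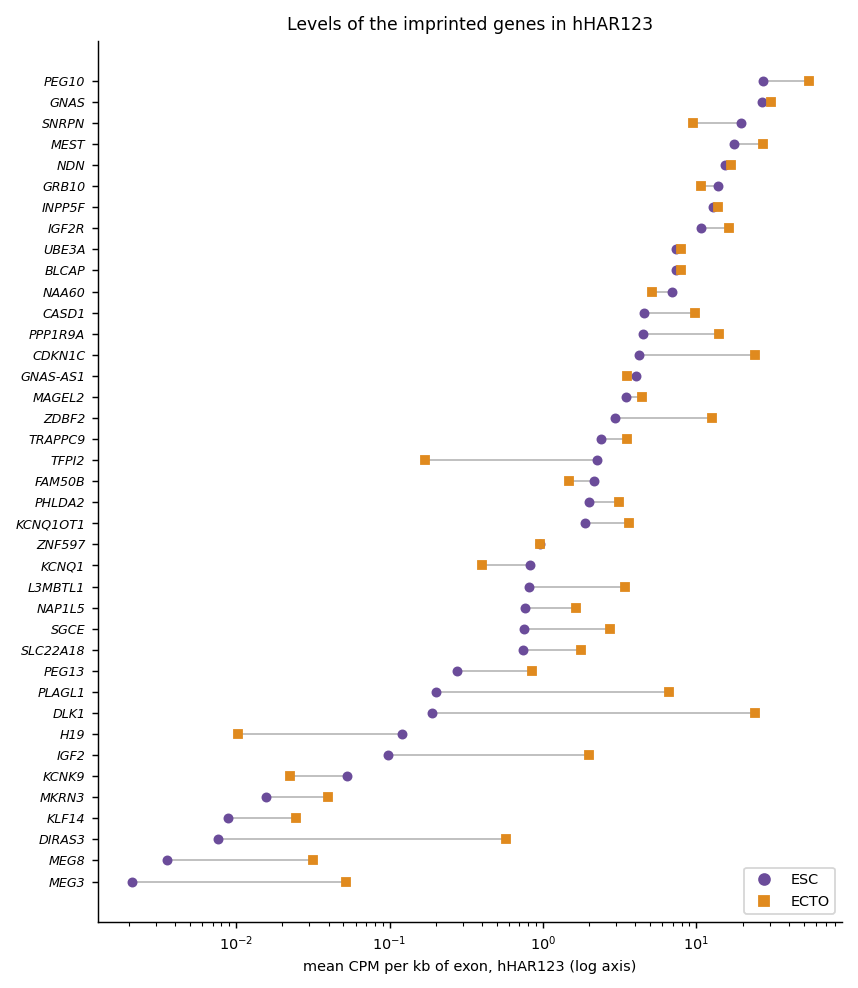
Mean level of 39 imprinted genes in the 3 hHAR123 ESC libraries (circles) and the 3 hHAR123 ECTO libraries (squares), in CPM per kb of whole exon length on a log axis, with a line joining both stages and genes ordered by their ESC level. DLK1, PLAGL1 and IGF2 lie far to the right in ECTO and TFPI2 far to the left, and PEG3, ZIM2, USP29 and NNAT are not drawn.

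The change from hESCs to neuroectoderm in hHAR123 cells gives the normal course of these genes. It was tested with edgeR's quasi-likelihood test over all 24 libraries with Benjamini-Hochberg adjustment over all genes tested, and a gene was called at an adjusted p under 0.01 with an absolute log2 fold change over 1. Of 38 imprinted genes tested, 12 rose and 4 fell, 42.1% in all, beside 45.5% of all genes, of which 24.4% rose and 21.1% fell. Their median log2 fold change was 0.34, against 0.06 over all genes tested.

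DLK1, a paternal gene that encodes a transmembrane relative of Notch ligands, had 1.04, 1.08 and 0.824 CPM in the hHAR123 ESC libraries and 123, 124 and 130 in the ECTO libraries. The rise was 104-fold, or 6.70 on the log2 scale (SE 0.08, adjusted p = 1.63e-57, edgeR). MEG3, the maternal noncoding RNA that shares the 14q32 domain with DLK1, went from 1, 0 and 4 counts to 27, 24 and 32 (log2 fold change 4.20, SE 0.51, adjusted p = 8.79e-11, edgeR). With so few ESC counts the size rests on single libraries, and it was 3.65 without hHAR123 ESC replicate 2 and 5.65 without replicate 3. MEG8, the noncoding RNA downstream of it, went from 3, 0 and 7 to 25, 18 and 16 (2.77, adjusted p = 7.51e-06, edgeR). Paternal and maternal transcripts of this domain thus rose together, although at 0.0351 CPM per kb over all ECTO libraries MEG3 lay far under DLK1 at 18.2.

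IGF2, the paternal fetal growth factor, had 19, 25 and 26 counts in hHAR123 hESCs and 313, 361 and 305 in neuroectoderm, a 16.5-fold rise (log2 fold change 4.05, SE 0.14, adjusted p = 1.18e-33, edgeR). Of its exon length, 43.2% overlapped other genes on the same strand, mainly INS-IGF2, so its level is a lower limit. Its partner H19 moved the other way, from 8, 17 and 10 counts to 1, 1 and 0. The summed ESC level of H19 was 12-fold the ECTO level, with an exact 95% counting interval of 3.08 to 103 (adjusted p = 0.000185, edgeR). DIRAS3, which encodes a growth-restraining Ras relative, had 0, 2 and 0 counts in hHAR123 hESCs and 39, 35 and 29 in neuroectoderm, a ratio of 75.1 with an exact 95% counting interval of 20.3 to 628 (adjusted p = 2.85e-14, edgeR). In HAR123-KO, DIRAS3 had no count in hESCs and 32, 37 and 29 in neuroectoderm, at least 12.8-fold higher against a floor of 3 counts per library.

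PLAGL1, a paternal zinc finger transcription factor that restrains proliferation, rose from 1.36, 1.39 and 1.14 CPM in hHAR123 hESCs to 42.7, 41.1 and 44.2 in neuroectoderm. The rise was 26.9-fold, 4.75 on the log2 scale (SE 0.10, adjusted p = 1.25e-45, edgeR). TFPI2, a maternal gene for a protease inhibitor of the extracellular matrix, fell most among the well-counted genes, from 5.46, 5.45 and 5.63 CPM to 0.618, 0.248 and 0.384 (log2 fold change -4.03, SE 0.20, adjusted p = 6.04e-26, edgeR). SNRPN fell by 1.35 on the log2 scale (SE 0.05, adjusted p = 8.68e-34, edgeR) and KCNQ1, a potassium channel gene of 11p15.5, by 1.33 (SE 0.17, adjusted p = 1.74e-10, edgeR). For SNRPN, 43.9% of the exon length overlapped other genes on the same strand.

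The other genes that rose in hHAR123 were CDKN1C at a log2 fold change of 2.22, ZDBF2, a zinc finger gene, at 1.80, L3MBTL1, which encodes a chromatin-compacting protein, at 1.79, SGCE, which encodes epsilon-sarcoglycan, at 1.58, PPP1R9A, which encodes the actin-binding scaffold neurabin, at 1.35, and the noncoding RNA PEG13 at 1.33. A further 17 genes had an adjusted p under 0.01 but a smaller change, 8 upward and 9 downward and none over 0.96 in size, which made 33 of 38 by that rule (86.8%, beside 77.2% of all genes). GNAS, UBE3A, which encodes a ubiquitin ligase, INPP5F, which encodes a phosphoinositide phosphatase, and BLCAP all moved by 0.20 or less. Across genotypes, 10 genes rose in all 4 (DLK1, MEG3, MEG8, IGF2, CDKN1C, PLAGL1, DIRAS3, ZDBF2, L3MBTL1 and SGCE), 3 fell in all 4 (TFPI2, H19 and SNRPN), and 21 were called in at least 1. By the same rules 14.3% of all genes rose in all 4 and 15% fell, beside 26.3% and 7.89% of the 38 imprinted genes, and 55.8% were called in at least 1, beside 55.3%.

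Paternal genes lay higher than maternal genes on this axis. In hHAR123, 8 of 19 paternal genes tested rose and 1 fell, with a median log2 fold change of 0.81, while 4 of 19 maternal genes rose and 3 fell, with a median of -0.10. The paternal medians were 0.98, 0.90 and 0.93 in HAR123-KO, cHAR123 and mHAR123, and the maternal medians -0.25, -0.18 and -0.14. Genes of a domain share regulation and are not independent, and the difference between the classes is given as a description. The number called was 18 of 38 in HAR123-KO (47.4%, beside 40.3% of all genes), 17 in cHAR123 (44.7%, beside 42.1%) and 16 in mHAR123 (42.1%, beside 41.4%). Without the fold threshold it was 34, 33 and 34, beside 73.8%, 74.9% and 74.8% of all genes.

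**Figure D2:**
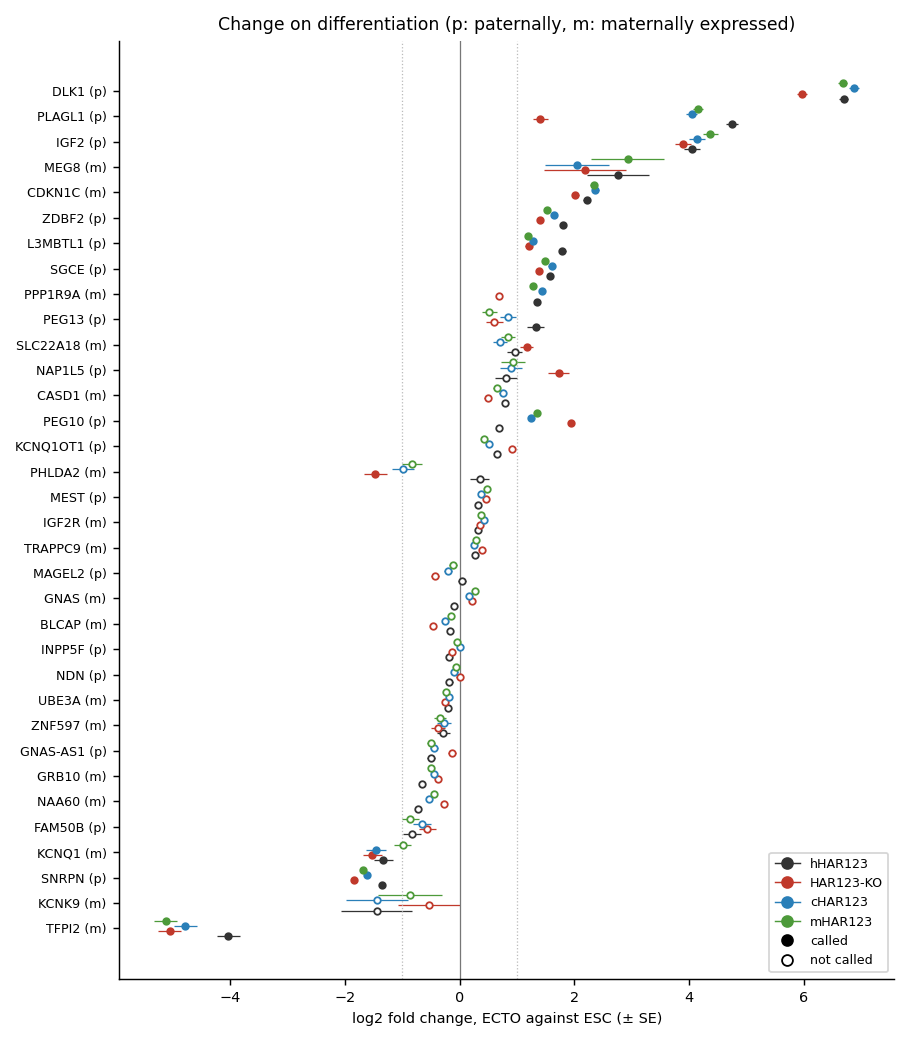
Log2 fold change from ESC to ECTO of 34 imprinted genes in each of the 4 genotypes, ordered by the hHAR123 value, with error bars of 1 SE, filled points for genes called, and p or m beside a name for a paternally or maternally expressed gene. Among the genes drawn, DLK1, PLAGL1 and IGF2 lie at the top and TFPI2 at the bottom. The PLAGL1 point of HAR123-KO, at 1.41, lies far left of that of hHAR123, at 4.75. DIRAS3, MEG3, H19 and MKRN3 were tested but are not drawn. The first 3 had fitted values of 5.67, 4.20 and -3.66 in hHAR123.

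A difference carried by a line through both stages could be seen already in hESCs, but only for genes counted well enough there. Genes such as MEG3 and DIRAS3, with 18 and 6 counts over all 12 ESC libraries, could not show it at that stage. Each edited genotype was compared with hHAR123 in a fit of its 6 libraries, and the 3 comparisons share the hHAR123 libraries. In hESCs, edgeR called 0 of 33 imprinted genes in HAR123-KO, 0 of 34 in cHAR123 and 0 of 34 in mHAR123, beside 1.18%, 0.85% and 1.23% of all genes, and DESeq2 also called 0 in each. At an unadjusted p under 0.05 with no fold threshold, 13, 16 and 15 of them passed (39.4%, 47.1% and 44.1%, beside 29.7%, 36.9% and 38.5% of all genes). At an adjusted p under 0.01 with no fold threshold 5, 11 and 9 did, beside 12.4%, 16.3% and 19.2% of all genes. Changes were small, with 31 of 33, 30 of 34 and 30 of 34 genes within 0.5 of 0 on the log2 scale and medians of 0.02, 0.02 and 0.03, against 0.00, 0.01 and 0.01 over all genes.

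The genes 0.5 or more from 0 in at least 1 edited genotype in hESCs were PEG13, TFPI2, L3MBTL1, PHLDA2, DLK1 and KCNK9, named after their values were seen. KCNK9 differed by 0.62 in cHAR123 and did not pass (SE 0.35, adjusted p = 0.202, edgeR). The noncoding RNA PEG13 had 1.51 to 1.65 CPM in hHAR123, 2.19 to 2.48 in HAR123-KO, 2.07 to 3.17 in cHAR123 and 2.63 to 3.11 in mHAR123. No edited library overlapped the hHAR123 range, and the log2 differences were 0.56, 0.70 and 0.83 (adjusted p = 0.0157, 0.00273 and 6.62e-05, edgeR). TFPI2 had 5.45 to 5.63 CPM in hHAR123, 7.85 to 9.18 in HAR123-KO, 7.68 to 8.75 in cHAR123 and 7.73 to 8.23 in mHAR123, with log2 differences of 0.60, 0.52 and 0.50 (adjusted p = 3.6e-06, 4.59e-05 and 3.17e-05, edgeR). L3MBTL1 differed by 0.19, 0.45 and 0.52 (adjusted p = 0.0487, 2.29e-06 and 2.95e-08, edgeR). For PEG13, TFPI2 and L3MBTL1 the 3 edited genotypes lay on the same side of the shared hHAR123 libraries, and none passed the fold threshold.

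In neuroectoderm, HAR123-KO differed from hHAR123 in 4 of 34 imprinted genes tested, or 11.8%, beside 9.45% of all genes, a share near the background. PLAGL1, MEG3 and PHLDA2 fell, 3 genes or 8.82% beside 4.52% of all genes, and PEG10 rose, 1 gene or 2.94% beside 4.92%. DESeq2 also called 4. At an adjusted p under 0.01 with no fold threshold, 20 of the 34 passed (58.8%, beside 44.1% of all genes), 9 upward (beside 24.2%) and 11 downward (beside 19.9%), and the median log2 difference was -0.10 against 0.00 over all genes.

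PLAGL1 differed most. Its ECTO libraries had 42.7, 41.1 and 44.2 CPM in hHAR123, 5.51, 6.45 and 5.07 in HAR123-KO, 33.6, 33.9 and 35.2 in cHAR123, and 35.5, 35.3 and 39.2 in mHAR123. The lowest hHAR123 library lay far above the highest HAR123-KO library, and the replacement lines lay close below hHAR123. PLAGL1 was 7.25-fold lower in HAR123-KO (log2 difference -2.86, SE 0.08, adjusted p = 5.48e-35, edgeR). Against HAR123-KO, in a fit of all 12 ECTO libraries, it was higher by 2.56 in cHAR123 (SE 0.08, adjusted p = 1.97e-31, edgeR) and by 2.68 in mHAR123 (SE 0.08, adjusted p = 1.46e-32, edgeR). The cHAR123 libraries were 0.30 under hHAR123 (adjusted p = 2.37e-05, edgeR) and the mHAR123 libraries 0.18 (adjusted p = 0.0148, edgeR), which did not pass.

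In hESCs, PLAGL1 was not lower in HAR123-KO. It had 1.59, 1.67 and 2.15 CPM there against 1.36, 1.39 and 1.14 in hHAR123, a log2 difference of 0.48 (SE 0.20, adjusted p = 0.0858, edgeR). The cHAR123 ESC libraries had 1.62, 1.81 and 1.86 CPM and the mHAR123 ESC libraries 1.77, 1.72 and 1.88. Every edited ESC library thus lay above every hHAR123 ESC library. The effect of HAR123-KO on PLAGL1 was not the same at both stages, with a log2 difference between them of -3.34 (SE 0.20, adjusted p = 2.54e-21, edgeR, interaction over 24 libraries). PLAGL1 still rose on differentiation of HAR123-KO cells, by 1.41 (SE 0.13, adjusted p = 3.57e-14, edgeR) where hHAR123 rose by 4.75.

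HYMAI, a paternal noncoding RNA inside the PLAGL1 locus, is not among the 43 but shares a promoter with PLAGL1. It had 79, 71 and 114 counts in hHAR123 ECTO, 7, 15 and 5 in HAR123-KO, 64, 79 and 56 in cHAR123, and 68, 73 and 58 in mHAR123, a fall by 3.28 on the log2 scale in HAR123-KO (SE 0.27, adjusted p = 3.66e-15, edgeR). Both transcripts of the locus were thus lower in HAR123-KO. The promoter windows of PLAGL1 are shown because both transcripts can start at the first of them. RefSeq gives PLAGL1 5 windows of 300 bases, from 250 before to 50 after an annotated start, on GRCh38.p14. The window at chr6:144008210-144008509, minus strand, held 39 CG dinucleotides and is identical to the only window of HYMAI. The window at chr6:144064550-144064849, minus strand, lies 56.3 kb upstream at the outer end of the gene and held 31, while the other 3 windows held 2 to 3. Capitals mark TGCCGC on either strand (GCGGCA as read on the strand shown), the core of the sequence bound by ZFP57, a zinc finger protein that keeps the methylation of imprinting control regions when it is methylated.
PLAGL1 and HYMAI shared window: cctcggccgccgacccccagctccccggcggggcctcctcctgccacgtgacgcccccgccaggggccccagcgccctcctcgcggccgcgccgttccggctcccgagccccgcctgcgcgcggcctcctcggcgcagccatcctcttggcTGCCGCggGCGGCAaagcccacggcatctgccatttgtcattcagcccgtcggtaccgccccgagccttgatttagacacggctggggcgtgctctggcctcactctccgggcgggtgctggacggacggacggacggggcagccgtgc
PLAGL1 outer window: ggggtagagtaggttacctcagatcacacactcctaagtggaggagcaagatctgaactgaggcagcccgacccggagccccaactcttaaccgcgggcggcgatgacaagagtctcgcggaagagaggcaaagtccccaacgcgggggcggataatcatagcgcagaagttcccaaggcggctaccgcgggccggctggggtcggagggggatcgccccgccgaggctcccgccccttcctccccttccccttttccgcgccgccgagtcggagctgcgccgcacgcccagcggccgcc
The shared window held the hexamer once on each strand, and the outer window held none. A match is a description of the letters and not of binding, and no methylation was measured.

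Within 500 kb of PLAGL1, 11 other genes were tested in HAR123-KO against hHAR123 ECTO, and 2 were called, beside 9.45% of all genes. Besides HYMAI, the called one was PHACTR2, a phosphatase and actin regulator gene, at -1.12 (SE 0.04, adjusted p = 1.01e-28, edgeR). The nearer neighbours did not share the fall. SF3B5, a splicing factor gene and the nearest of them, differed by 0.26, UTRN, which encodes utrophin, by 0.17 and LTV1, a ribosome assembly gene, by -0.13.

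MEG3 had 27, 24 and 32 counts in hHAR123 ECTO, 6, 9 and 6 in HAR123-KO, 17, 13 and 16 in cHAR123, and 20, 33 and 27 in mHAR123. All HAR123-KO libraries lay below all others, the cHAR123 libraries lay between, and mHAR123 overlapped hHAR123. The difference in HAR123-KO was -1.98 on the log2 scale (SE 0.35, adjusted p = 3.53e-06, edgeR), or 3.94-fold lower, in cHAR123 -0.88 (adjusted p = 0.0276, edgeR) and in mHAR123 -0.10 (adjusted p = 0.83, edgeR). Against HAR123-KO, mHAR123 was higher by 1.88 (SE 0.35, adjusted p = 1.33e-05, edgeR), and cHAR123, at 1.10, did not pass (adjusted p = 0.0178, edgeR). With 18 counts over all 12 ESC libraries, MEG3 could not be compared in hESCs, and the difference of its HAR123-KO effect between stages, a 1.99-fold lower value with a log2 SE of 1.60, was not shown (adjusted p = 0.674, edgeR).

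Other genes of the 14q32 domain had lower values as well. MEG8 had 25, 18 and 16 counts in hHAR123 ECTO and 11, 11 and 6 in HAR123-KO, a log2 difference of -1.08 that missed the threshold (SE 0.36, adjusted p = 0.0106, edgeR). DLK1 had 123, 124 and 130 CPM in hHAR123, 66.8, 66.0 and 62.8 in HAR123-KO, 83.5, 84.6 and 78.6 in cHAR123, and 105, 115 and 110 in mHAR123, so that the 4 genotypes formed 4 ranges without overlap. The DLK1 difference was -0.89 in HAR123-KO (SE 0.04, adjusted p = 1.21e-25, edgeR), -0.60 in cHAR123 (adjusted p = 2.23e-16, edgeR) and -0.16 in mHAR123 (adjusted p = 0.00405, edgeR), each under the fold threshold. RTL1, a retrotransposon-derived paternal gene of the same domain outside the 43, had 14, 18 and 18 counts in hHAR123 and 2, 4 and 1 in HAR123-KO (log2 difference -2.78, SE 0.50, adjusted p = 4.7e-06, edgeR). DIO3, a paternal gene for a thyroid hormone-inactivating deiodinase at the far end of the domain, had 35, 52 and 46 in hHAR123, 6, 4 and 5 in HAR123-KO, 25, 27 and 19 in cHAR123, and 21, 9 and 20 in mHAR123, with a difference of -3.13 in HAR123-KO (SE 0.33, adjusted p = 1.7e-11, edgeR). Of the maternal noncoding RNAs and paternal coding genes of the domain, MEG3, MEG8, DLK1, RTL1 and DIO3 each had their lowest ECTO mean in HAR123-KO. Other genes of the domain are not given, and RTL1 and DIO3 were named after their values were seen. MEG3, RTL1 and DIO3 held at most 9 counts in any HAR123-KO ECTO library and entered the test through their hHAR123 counts.

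Of 9 genes tested within 500 kb of either end of MEG3, 2 were called, beside 9.45% of all genes. BEGAIN, which encodes a synaptic scaffold protein, fell by 1.10 (SE 0.18, adjusted p = 1.31e-06, edgeR) together with RTL1. WDR25 and WARS1, a tRNA synthetase gene, differed by -0.15 and 0.13. RefSeq gives MEG3 3 promoter windows that overlap one another, at a start known to be differentially methylated between the parental copies. The window with the lowest coordinate is shown. It spans chr14:100825858-100826157 on the plus strand and held 19 CG dinucleotides and the hexamer once, on the other strand.
MEG3 window: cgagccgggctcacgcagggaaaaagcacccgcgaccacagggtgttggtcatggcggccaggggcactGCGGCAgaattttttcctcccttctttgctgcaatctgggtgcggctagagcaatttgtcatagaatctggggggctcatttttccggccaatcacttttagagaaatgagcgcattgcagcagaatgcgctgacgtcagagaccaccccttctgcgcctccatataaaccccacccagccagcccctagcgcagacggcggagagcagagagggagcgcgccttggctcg

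**Figure D3:**
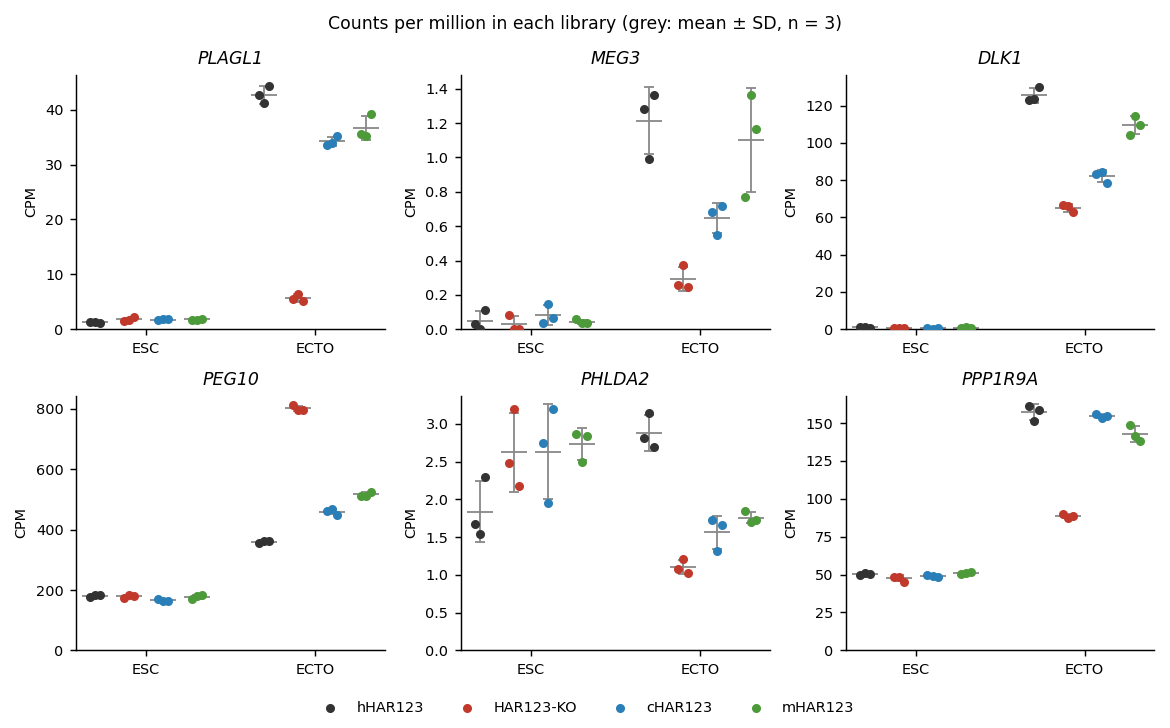
CPM in each of the 24 libraries for PLAGL1, MEG3, DLK1, PEG10, PHLDA2 and PPP1R9A, with coloured points for libraries and grey lines for the group mean and 1 SD (n = 3). PLAGL1, MEG3 and PHLDA2 are lowest and PEG10 highest in HAR123-KO ECTO, while the genotype ranges overlap or lie close together in ESC.

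PEG10 was the imprinted gene that rose. Its ECTO libraries had 356, 363 and 361 CPM in hHAR123, 812, 796 and 798 in HAR123-KO, 462, 467 and 450 in cHAR123, and 512, 513 and 526 in mHAR123, again 4 ranges without overlap. The difference was 1.21 in HAR123-KO (SE 0.03, adjusted p = 4.16e-38, edgeR), a 2.31-fold rise, and 0.37 in cHAR123 (adjusted p = 2.49e-14, edgeR) and 0.57 in mHAR123 (adjusted p = 1.45e-17, edgeR), both under the fold threshold. In hESCs it lay between 163 and 184 CPM in all 12 libraries, and the HAR123-KO difference was -0.04 (adjusted p = 0.395, edgeR). The effect differed between stages by 1.25 (SE 0.04, adjusted p = 2.51e-35, edgeR).

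The nearest imprinted neighbours of PEG10 did not rise with it. SGCE starts 0.2 kb away on the opposite strand and is imprinted with it, yet differed by -0.14 (adjusted p = 0.0146, edgeR), and CASD1, which encodes a sialic acid acetyltransferase, by -0.25 (adjusted p = 8.3e-05, edgeR). PPP1R9A, a maternal gene downstream, had 161, 151 and 158 CPM in hHAR123 ECTO and 89.7, 87.2 and 88.9 in HAR123-KO, a difference of -0.77 without overlap (SE 0.04, adjusted p = 1.28e-24, edgeR). It rose by 1.35 on differentiation in hHAR123 and by 0.68 in HAR123-KO. COL1A2, a collagen gene on the other side of CASD1 and 1 of the mesenchyme markers above, was the called neighbour among 6 tested, beside 9.45% of all genes. It differed by 2.88 (SE 0.03, adjusted p = 5.22e-51, edgeR), from 81.9 ± 2.58 CPM (SD, n = 3) to 581 ± 14.4.

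PHLDA2, a maternal gene of 11p15.5 that restrains placental growth, had 59, 76 and 63 counts in hHAR123 ECTO, 25, 29 and 25 in HAR123-KO, 43, 31 and 37 in cHAR123, and 48, 41 and 40 in mHAR123. Every edited library lay below every hHAR123 library. The difference was -1.33 in HAR123-KO (SE 0.20, adjusted p = 1.86e-07, edgeR), -0.87 in cHAR123 (SE 0.19, adjusted p = 0.000786, edgeR) and -0.67 in mHAR123 (SE 0.18, adjusted p = 0.00549, edgeR), the last 2 under the fold threshold. Neither replacement line was called against HAR123-KO, at 0.47 (adjusted p = 0.0773, edgeR) and 0.67 (adjusted p = 0.00858, edgeR).

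In hESCs PHLDA2 lay on the other side. It had 1.67, 1.54 and 2.30 CPM in hHAR123, 2.49, 3.20 and 2.18 in HAR123-KO, 2.74, 1.96 and 3.20 in cHAR123, and 2.87, 2.49 and 2.84 in mHAR123. The first 2 edited genotypes overlapped hHAR123 and mHAR123 did not, with differences of 0.48, 0.49 and 0.53 (adjusted p = 0.0465, 0.0404 and 0.0112, edgeR). The effect differed between stages by -1.82 in HAR123-KO (SE 0.27, adjusted p = 9.47e-08, edgeR), -1.33 in cHAR123 (SE 0.26, adjusted p = 0.000104, edgeR) and -1.17 in mHAR123 (SE 0.25, adjusted p = 0.000274, edgeR). On differentiation PHLDA2 changed by 0.35 in hHAR123 (adjusted p = 0.06, edgeR) and by -1.47 in HAR123-KO (adjusted p = 3.77e-09, edgeR). Its neighbours under the same imprinting control region stayed closer to hHAR123 in HAR123-KO ECTO, with CDKN1C at -0.27 (adjusted p = 1.43e-06, edgeR), SLC22A18, a transporter gene, at 0.28 (adjusted p = 0.0204, edgeR), KCNQ1OT1, the paternal noncoding RNA that silences the domain in cis, at 0.27 (adjusted p = 8.17e-11, edgeR) and KCNQ1 at -0.16 (adjusted p = 0.553, edgeR). None of 12 genes tested within 500 kb of PHLDA2 was called, beside 9.45% of all genes.

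Other imprinted genes shifted in HAR123-KO ECTO under the fold threshold. NAP1L5, which encodes a nucleosome assembly protein relative, had 84, 65 and 64 counts in hHAR123 and 97, 145 and 159 in HAR123-KO, a difference of 0.90 without overlap (SE 0.15, adjusted p = 1.85e-06, edgeR). In mHAR123 it had 68, 45 and 72, and mHAR123 against HAR123-KO was called at -1.15 (SE 0.17, adjusted p = 1.2e-07, edgeR). L3MBTL1 differed by -0.39, SNRPN by -0.37, NAA60, an acetyltransferase gene, by 0.38 and GNAS-AS1, the antisense RNA of the GNAS locus, by 0.34, all with an adjusted p under 0.01 by edgeR. The growth regulators IGF2 (-0.00), IGF2R (0.14), the receptor that clears IGF2, and GRB10 (0.23), an adaptor that damps insulin signalling, stayed near hHAR123, as did UBE3A (-0.05), NDN (0.12) and MEST (0.05).

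In cHAR123 and mHAR123 ECTO, edgeR and DESeq2 called none of 35 and none of 34 imprinted genes against hHAR123, beside 0.978% and 1.03% of all genes. At an unadjusted p under 0.05 with no fold threshold, 15 and 16 passed (42.9% and 47.1%, beside 29% and 33.8%), and 7 and 8 at an adjusted p under 0.01, beside 9.89% and 14% of all genes. Besides PEG10, PHLDA2 and DLK1, mHAR123 differed in IGF2, with 479, 476 and 514 counts against 313, 361 and 305, a difference of 0.54 (SE 0.08, adjusted p = 2.12e-06, edgeR). In cHAR123, MKRN3 had 18, 12 and 12 counts against 8, 5 and 6, a difference of 1.09 that did not pass (SE 0.41, adjusted p = 0.0618, edgeR). With all 12 ECTO libraries in 1 fit, MKRN3 was called in cHAR123 against HAR123-KO, which had 5, 3 and 2 counts (2.01, SE 0.50, adjusted p = 0.000731, edgeR), a call that DESeq2 did not make (adjusted p = 0.0117). Over the 6 genotype pairs, 6 of 37 imprinted genes were called in at least 1 in neuroectoderm, or 16.2%, beside 11.3% of all genes, and 0 of 34 in hESCs beside 2.16%. Against HAR123-KO, 2 of 37 were called in cHAR123 and 3 in mHAR123, beside 7.33% and 7.05% of all genes. Between the replacement lines themselves, 0 of 37 were called in neuroectoderm (edgeR and DESeq2, 12 at an unadjusted p under 0.05), beside 0.233% of all genes.

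**Figure D4:**
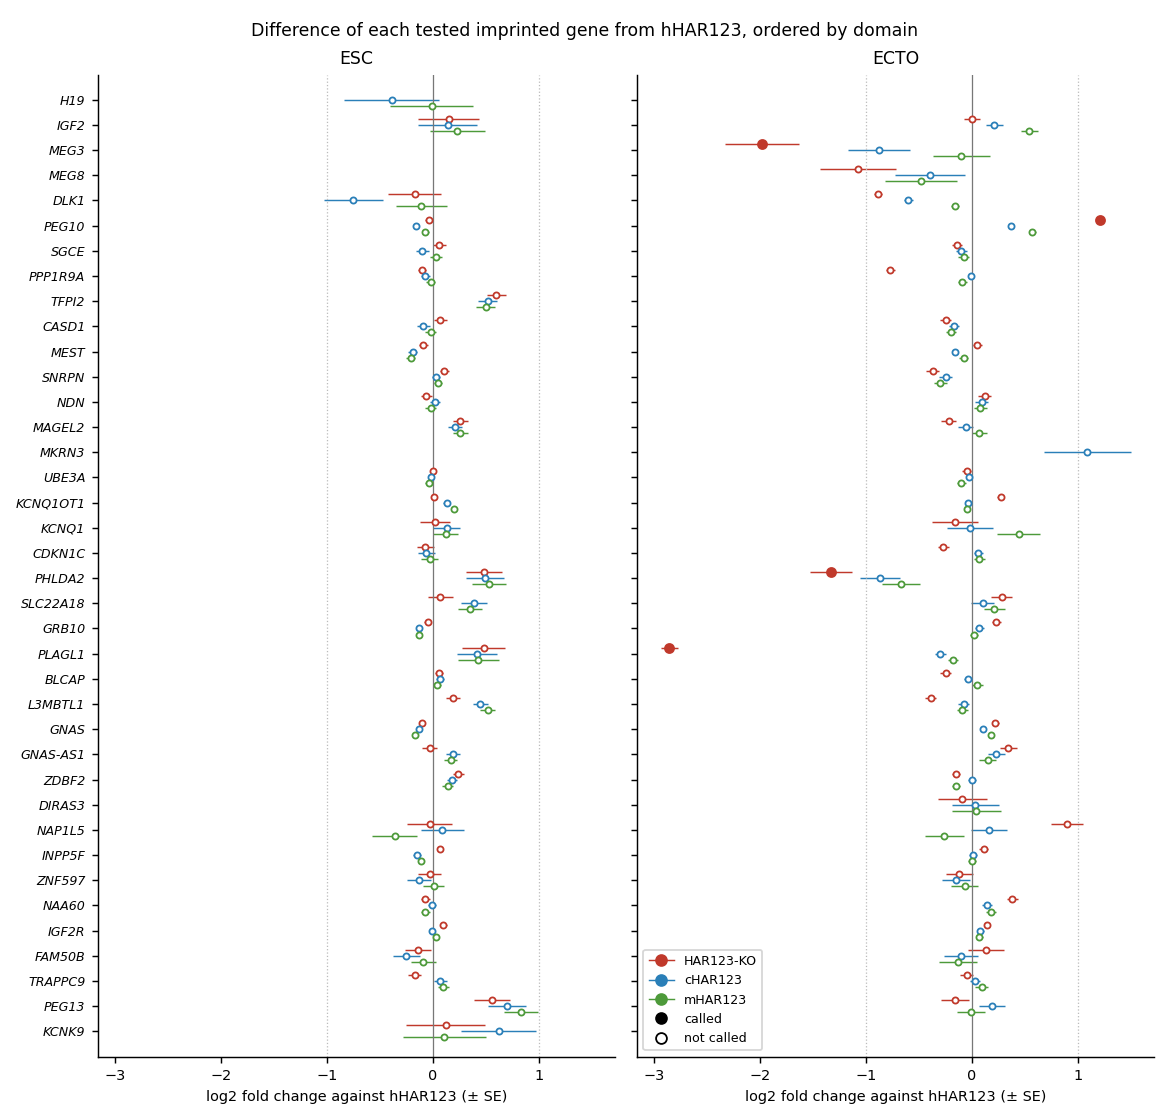
Log2 fold change of 38 imprinted genes against hHAR123 in HAR123-KO, cHAR123 and mHAR123, in ESC and in ECTO, ordered by domain, with error bars of 1 SE and filled points for genes called. In ESC the genes cluster around 0 with none called. In ECTO, PLAGL1, MEG3 and PHLDA2 are called below -1 and PEG10 above 1, in HAR123-KO alone. MEG8, at -1.08 in HAR123-KO ECTO, and MKRN3, at 1.09 in cHAR123 ECTO, also lie beyond these values but are not called.

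The question of a line-specific loss or gain at both stages was tested by asking for genes called against each of the other 3 genotypes, in 1 direction, in both hESCs and neuroectoderm. None of 33 imprinted genes met this for hHAR123, HAR123-KO, cHAR123 or mHAR123 (edgeR), beside 0.116%, 0.0252%, 0.0202% and 0.0101% of 19812 genes testable at both stages, and DESeq2 gave 0 as well. At an unadjusted p under 0.05 with the fold threshold kept, 0 met it, and without the fold threshold 1 did, for HAR123-KO. In the wider search for any 1 of the 6 pairs called at both stages in the same direction, edgeR and DESeq2 gave 0 of 33, beside 0.474% of all genes, and 11 did at an unadjusted p under 0.05 with no fold threshold.

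At an adjusted p under 0.01 with no fold threshold, 5 of 33 genes differed in at least 1 pair at both stages, or 15.2%, beside 9.25% of all genes. IGF2R exceeded its hHAR123 level in HAR123-KO by 0.10 in hESCs and 0.14 in neuroectoderm (adjusted p = 0.00829 and 6.97e-06, edgeR). MEST was lower in cHAR123 than in hHAR123 by 0.19 and 0.16. L3MBTL1 was higher than in HAR123-KO by 0.26 and 0.31 in cHAR123 and by 0.33 and 0.30 in mHAR123. INPP5F was lower in mHAR123 than in HAR123-KO by 0.18 and 0.11, and PEG10 lower in cHAR123 than in HAR123-KO by 0.13 and 0.84. DLK1 was lower in cHAR123 than in hHAR123 at both stages, by 0.75 in hESCs, where it had 17, 11 and 22 counts against 33, 36 and 29, and by 0.60 in neuroectoderm, but the first did not pass (adjusted p = 0.0408, edgeR).

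Over the imprinted genes as a whole, the effect of HAR123-KO differed between stages for 3 of 38 (7.89%, beside 7.56% of all genes), the effect of cHAR123 for 2 (5.26%, beside 0.782%) and that of mHAR123 for 1 (2.63%, beside 1.01%). Without the fold threshold these counts were 18, 10 and 10, beside 31.3%, 9.84% and 13.5% of all genes. Besides PLAGL1, PEG10 and PHLDA2, the remaining case was MKRN3 in cHAR123, which had no count in the 3 cHAR123 ESC libraries, 5, 4 and 2 in hHAR123 ESC and 18, 12 and 12 in cHAR123 ECTO (adjusted p = 0.00312, edgeR). Within cHAR123 it was at least 5.5-fold higher in neuroectoderm than in hESCs against a floor of 3 counts per library. This call was lost on leaving out hHAR123 ESC replicate 1 or any cHAR123 ESC library (adjusted p of 0.0111 to 0.0154, edgeR) and DESeq2 gave no adjusted p for it.

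**Figure D5:**
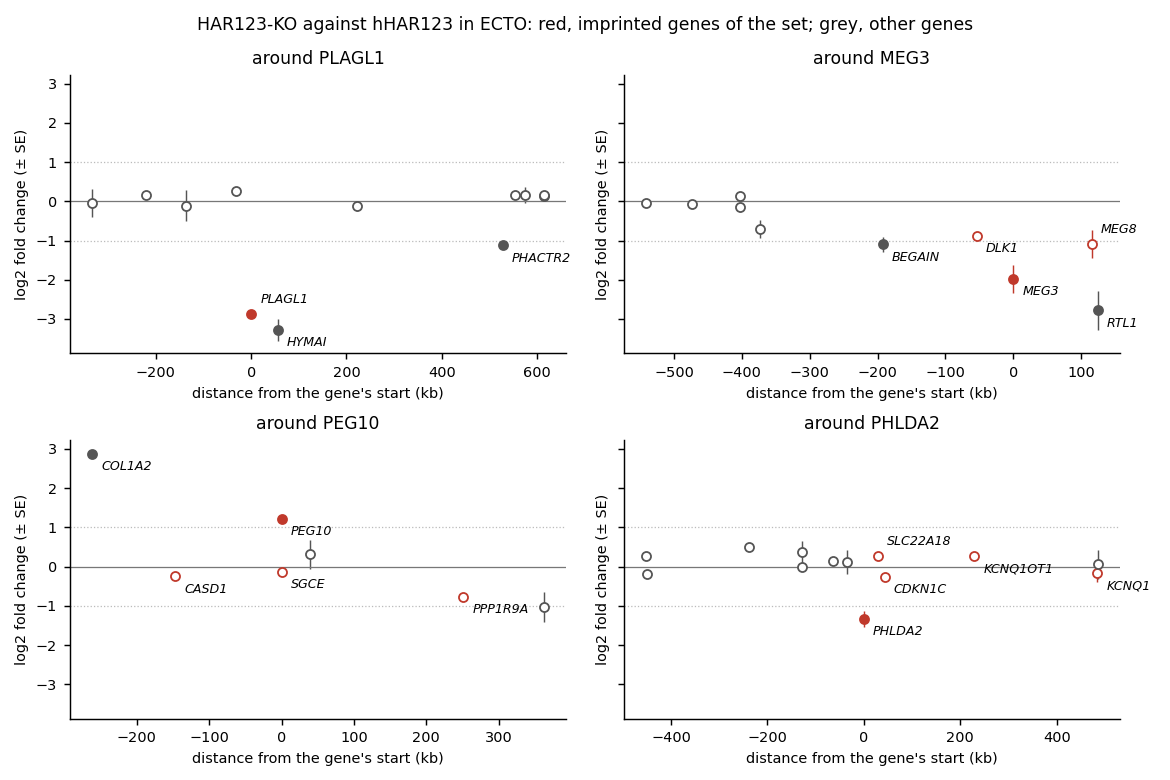
Log2 fold change of HAR123-KO against hHAR123 in neuroectoderm for genes tested within 500 kb of PLAGL1, MEG3, PEG10 and PHLDA2, against the distance of their starts in kb, with error bars of 1 SE, red points for imprinted genes of the set, grey for others and filled points for genes called. HYMAI lies low beside PLAGL1 and RTL1 low beside MEG3, whereas SGCE beside PEG10 and CDKN1C and SLC22A18 beside PHLDA2 lie near 0.

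Imprinted genes outside the 43 and the proteins that maintain imprints complete the account. Of 56 further imprinted genes listed, 51 were found, and in HAR123-KO ECTO 4 of 36 tested rose and 5 fell (median -0.03), beside 9.45% of all genes called. LPAR6, a lysophosphatidic acid receptor gene that lies within RB1, rose most, at 2.81 (SE 0.25, adjusted p = 4.78e-14, edgeR), and ATP10A, a phospholipid flippase gene, by 1.64 (adjusted p = 2.59e-08, edgeR). Besides HYMAI, DIO3 and RTL1, the homeobox gene DLX5 fell by 2.48 (adjusted p = 2.57e-07, edgeR) and DLGAP2, a postsynaptic scaffold gene, by 1.38 (adjusted p = 1.3e-11, edgeR). In mHAR123 ECTO, LPAR6 rose by 1.38 and DIO3 fell by 1.45 among 35 tested (edgeR), beside 1.03% of all genes, and DESeq2 called 1. In cHAR123 ECTO none of 34 was called by edgeR or DESeq2, beside 0.978% of all genes, with 11 at an unadjusted p under 0.05. In the HAR123-KO, cHAR123 and mHAR123 ESC comparisons neither tool called any of 33, 32 and 33, beside 1.18%, 0.85% and 1.23%, with 13, 13 and 17 at an unadjusted p under 0.05. On differentiation of hHAR123 cells, 6 of 38 rose and 14 fell, beside 24.4% and 21.1% of all genes, with a median of -0.50 where that of the 43 was 0.34. The counts were 4 and 12 in HAR123-KO, 6 and 14 in cHAR123, and 7 and 14 in mHAR123, with medians of -0.48, -0.46 and -0.42.

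Of 28 regulators of imprints, among them ZFP57, TRIM28, CTCF and the DNA methyltransferases, 20 to 23 were tested in each comparison. Against hHAR123, the called case was CTCFL, a germline relative of CTCF, which was higher in mHAR123 hESCs by 1.20 (SE 0.13, adjusted p = 3.58e-10, edgeR), 1 of 23 tested beside 1.23% of all genes. Its mean CPM in hESCs was 2.29 in hHAR123, 4.24 in HAR123-KO, 3.16 in cHAR123 and 5.4 in mHAR123. All edited genotypes thus lay above the shared hHAR123 libraries, and HAR123-KO and cHAR123 were not called. In neuroectoderm edgeR and DESeq2 called none of 20 in HAR123-KO, cHAR123 or mHAR123, beside 9.45%, 0.978% and 1.03% of all genes, with 13, 11 and 13 at an unadjusted p under 0.05. On differentiation of hHAR123 cells, 4 of 23 regulators rose and 11 fell (median -0.71), beside 24.4% and 21.1% of all genes. The counts were 2 and 8 in HAR123-KO, and 3 and 8 in cHAR123 and in mHAR123, beside 40.3%, 42.1% and 41.4% of all genes called. The effect of HAR123-KO differed between stages for 1 of 23, beside 7.56% of all genes.

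Promoter sequence was described last, as a property that the choice of genes did not use. RefSeq windows were available for 26 of the 43 genes, 57 windows in all. TGCCGC on either strand occurred in 23 of the 57 windows, or 40.4%, beside 16.7% of 35116 windows of all genes. By gene, 15 of the 26 held it in at least 1 window, or 57.7%, beside 19.5% of 27305 genes. Windows of a gene can overlap and hold the same site, as those of MEG3 do, and the imprinted genes had more windows each. The windows of imprinted genes held a median of 20 CG dinucleotides, against 14 in all windows, and a hexamer with a CG is met more often in CG-rich sequence. The part of CG number in these shares was not tested.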

How the data were processed

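Total RNA of H9 hESCs and derived neuroectoderm was depleted of ribosomal RNA, made into directional libraries and read from both ends on a NovaSeq instrument. Per the labels and the study's methods, the authors aligned reads to GRCh38 with STAR 2.5.2b and counted them per gene with featureCounts of the Subread package, and the submitters' processing notes also name DESeq2. The deposited table holds raw counts of reads for each gene, without normalization. The strand and overlap settings are not given in the sources used here. Of 790 genes whose exons lie wholly under exons of the opposite strand, 449 had counts, and of 1008 that lie wholly under exons of the same strand, 0 had, so reads were assigned by strand and reads shared by overlapping genes of a strand were left out. ANK2 was left out because its entry ran over 3 lines, which left 61551 of 61552 genes.

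The members and gene lists were chosen with earlier results of these data known. Tests were run with edgeR 4.0.16 in R 4.3.3 (filterByExpr, TMM, quasi-likelihood F test, Benjamini-Hochberg adjustment over all genes tested) and genes were called, as in the study, where the adjusted p was under 0.01 and the log2 fold change over 1 in size. Each genotype was compared with hHAR123 in its 6 libraries. All 24 libraries gave the change between stages and its difference between genotypes, and the 12 libraries of a stage the 6 genotype pairs. The SE was taken as the log2 fold change, without its sign, over the square root of F. CPM uses library totals (21022748 to 35198684) and exon length comes from the GRCh38 annotation. Counting intervals are exact, and intervals and floors (3 counts) cover counting error only. On simulated counts for HAR123-KO against hHAR123 ECTO (21203 genes, 200 changed), 98% of 2.5-fold and 100% of 4-fold changes were recovered with 0 false calls. For genes specific to HAR123-KO at both stages (19634 genes), 94% and 99% were. The changed genes were drawn from well-counted genes only, and the simulation gave every gene the same spread and no shared clones. Genes with few counts, such as PHLDA2, MEG3 and MKRN3, could not be among those changed, so the recovery rates do not cover them.

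Named in full were genes called in a genotype comparison and, among genes called on differentiation in hHAR123, the 5 largest increases and the 4 decreases. Others are given by counts and ranges or were named after their values were seen. Replicates differed beyond sampling noise in every pair (chi-square per degree of freedom 1.41 to 5.53). Replicate numbers did not pair libraries (30 correlations of deviations, -0.0902 to 0.0962). Alternatives were DESeq2 1.42.0, its size factors in edgeR, no low-count filter, other samples in the fit, the replicate block, other thresholds, and leaving out each library. Sequences were read from RefSeq with Python 3.11.15.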

Additional observations from a re-analysis of the deposited data

Results flagged for a closer look

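For 6 results the effect of a genotype against hHAR123 differed between hESCs and neuroectoderm in edgeR's quasi-likelihood interaction test over 24 libraries. In HAR123-KO the difference, neuroectoderm minus hESCs on the log2 scale, was -3.34 for PLAGL1, 1.25 for PEG10 and -1.82 for PHLDA2. For PHLDA2 it was also -1.33 in cHAR123 and -1.17 in mHAR123, and these 3 values share the hHAR123 libraries. For MKRN3 in cHAR123 the fitted value was 5.86, which depends on the prior count because the 3 cHAR123 ESC libraries hold no count, and is no measure of size.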

How the results depend on the processing

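Of the results recomputed under the alternatives, none changed direction. With no fold threshold, the number of imprinted genes called in HAR123-KO, cHAR123 and mHAR123 was 5, 11 and 9 in hESCs and 20, 7 and 8 in neuroectoderm. By the same rule 33, 34, 33 and 34 were called on differentiation of hHAR123, HAR123-KO, cHAR123 and mHAR123, 18, 10 and 10 for an effect of HAR123-KO, cHAR123 and mHAR123 that differed between stages, and 5 for a genotype pair at both stages, fold size being the sole change. DESeq2 called 1 gene in place of 2 for the effect of cHAR123 differing between stages, with no adjusted p given for MKRN3. Fits that each left out 1 library gave 1 to 2 for that effect, 1 to 2 for mHAR123 (2 without mHAR123 ECTO replicate 3), 3 to 4 for HAR123-KO, 4 to 5 for HAR123-KO in neuroectoderm, 15 to 18 on differentiation, and 0 in hESCs, in the replacement lines in neuroectoderm and at both stages. The replicate block changed 0 of 39 results, and 6 of 30 libraries matched best with their own number, so the numbers were not read as pairing.

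The log2 fold change of MEG8, HAR123-KO against hHAR123, ECTO, passed with DESeq2 size factors (-1.09) and without hHAR123 ECTO replicate 3 (-1.23). Scaling by TMM library sizes lowered CPM in neuroectoderm, to 38.3 for PLAGL1 in hHAR123. Of 2 alternatives chosen after seeing the data, TMM over uncalled genes gave 4 for HAR123-KO in neuroectoderm. The other exchanged the cHAR123 and mHAR123 names in neuroectoderm for the both-stage counts alone, which stayed at 0. With 0 of 34 imprinted genes called for any genotype pair in hESCs, that exchange could give no other result. Results within neuroectoderm and between stages were not recomputed with the names exchanged. No scaling moved the median of all genes by more than 0.06. Depth limits MEG3, MEG8, H19, MKRN3, DIRAS3 and KCNK9 in hESCs, where libraries hold at most 24 counts for them.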
